A study of Mus musculus with 26 samples.

Results

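The comparison described here sets Sca-1 negative cardiac stromal cells taken 7 days after coronary ligation against Sca-1 negative cells of undamaged hearts. It uses 7 of the 26 libraries of the series, 3 at day 7 (replicates 1, 1B and 4B) and 4 undamaged (E5, F3, A6 and B7). Membership followed the file names, which carry the gate. The titles give the gate for replicate 1 and for the 4 undamaged libraries, whereas for 1B and 4B it is known from the file name alone, so main counts are also given with replicate 1 as the only day 7 library. Cells of both groups came from C57BL/6 mice, given as B6.129S4-Pdgfratm11(EGFP)Sor/J, with the genotype PDGFRa H2BEGFP+, in which a nuclear green fluorescent protein (GFP) follows the activity of the Pdgfra gene. Per the labels, heart cells were sorted as CD45 negative, CD31 negative and GFP positive and then split by SCA-1. The day 7 group differs by a left anterior descending (LAD) coronary artery ligation, while the undamaged group had no ligation. Age and the number of hearts per library are not given in the sources used here, so p-values measure the spread between libraries. The question of the comparison is how these cells change in the first week after an infarct.

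Pdgfra, the alpha receptor of platelet-derived growth factor, marks the fibroblasts that maintain the collagen network between cardiac muscle cells. After an infarct, resting fibroblasts near the damage divide, take on contractile proteins and secrete collagens, fibronectin and matricellular proteins, which are matrix proteins that signal to cells more than they bear load. Enzymes hydroxylate and crosslink the new collagen, so that a scar replaces the lost muscle. SCA-1, encoded by Ly6a, is carried by a stromal subset that includes progenitor-like and adventitial cells, and the cells described here lack it at the surface.

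The 3 day 7 libraries held 10.89 to 14.17 M (mega) counts in genes and the 4 undamaged ones 10.88 to 15.22 M, at which 3 counts correspond to 0.1971 to 0.2756 CPM (counts per M counts). Values below are CPM scaled by trimmed mean of M-values (TMM) factors over all 26 libraries. They are listed in the order 1, 1B, 4B for day 7 and E5, F3, A6, B7 for undamaged hearts, and n is 3 and 4 wherever an error follows (SD of CPM, standard error of log2 differences). The day 7 libraries correlated with each other at r = 0.954 to 0.967 across genes. Among the undamaged ones, E5 and F3 correlated at 0.979, but A6 and B7 at 0.886 with each other, and these 2 detected the fewest genes (12325 and 12634, against 14774 and 15150 in F3 and E5). Results that rest on A6 and B7 are therefore also given without them. Xist, the transcript of the inactive X chromosome, stood at 53.04 CPM in replicate 1, 0 in 1B and 332 in 4B, and at 0 to 0.341 in the undamaged libraries, while the Y-linked Ddx3y stood at 50.2 to 81.8 and 55.7 to 104 CPM. Replicates 1 and 4B thus hold transcripts of both kinds, and this was addressed only by a fit with Xist as a covariate. Among Sca-1 negative libraries that covariate marks 1, 4B and day 14 D9, and no undamaged library. With it the day 7 difference leans more on 1B. The fit therefore cannot separate a part of Xist from a loss of day 7 replication.

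The genes behind the sort were examined first. Ly6a held 31.2, 35.8 and 31.6 CPM in the day 7 libraries, against 77.5, 91.9, 18.8 and 22.1 CPM in the undamaged ones. The groups overlapped, since the undamaged libraries E5 and F3 lay above and A6 and B7 below the day 7 values (log2 difference -0.68 ± 0.47, adjusted p = 0.389). Pdgfra, which drives the sorted reporter, was 343, 341 and 366 CPM in the day 7 libraries, against 699, 590.3, 572 and 433 CPM in the undamaged ones. It was lower at day 7 without overlap (log2 difference -0.71 ± 0.21, adjusted p = 0.0388), a call that was lost under 10 of the alternatives run. Ptprc, the gene of CD45, stayed at or below 2.04 CPM in these 7 libraries, while Pecam1, the gene of CD31, held 10.2, 3.46 and 6.86 CPM in the day 7 libraries, against 55.3, 47.3, 22.9 and 36.98 CPM in the undamaged ones (log2 difference -2.57 ± 0.62, adjusted p = 0.0158).

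Markers of other cell types moved with the group. Summed over 19 endothelial genes the level was 548 to 655 CPM at day 7 against 884 to 1416 CPM undamaged, and 8 members fell and 2 rose. The 22 macrophage genes summed to 53.1 to 96.9 CPM at day 7 and 12.4 to 24.8 CPM undamaged, with 6 of 19 tested members higher. Cardiomyocyte genes (357 to 599 against 344 to 622 CPM) and 15 epicardial or mesothelial genes (313 to 403 against 314 to 446 CPM) overlapped in their sums. Even so, 2 of 15 tested cardiomyocyte genes fell, Mb and Myl2, and the cardiomyocyte median log2 difference was -1.66 (-0.55 without A6 and B7). The epicardial sums include Tcf21, also a resting fibroblast gene, which fell. The median log2 difference of the epicardial list was 4.10. Mural genes reached 772 to 888 against 793 to 1381 CPM. Lymphoid and neutrophil markers reached at most 1.79 CPM at day 7 and 2.67 CPM undamaged, and Cd3e, Cd3d, Cd3g and S100a8 were at 0 in all 7 libraries. The 13 Schwann and neural genes summed to 48.7 to 51.2 against 71.1 to 101.5 CPM, with their defining gene Sox10 at 0 throughout. The 11 adipocyte and erythroid genes summed to 0.676 to 6.05 CPM at day 7 against 0 to 35.2 CPM undamaged. Of these, the haemoglobin genes and Adipoq were at 0, and the 1 tested member, Alas2, was not called (log2 difference -2.33). Of 22 macrophage markers Ms4a7 was at 0 in the undamaged libraries, and of 19 cardiomyocyte markers Nppb was at 0 at day 7. The part of these cells in the results was not tested. In bulk RNA, fewer cells of a type and less RNA per cell cannot be told apart.

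At day 7 most listed genes of fibrillar collagen, fibroblast activation, matricellular proteins and mitosis were higher, as were smaller shares of the collagen-modifying enzymes and contractile genes, and lower were many of the genes typical of resting fibroblasts, lipid handling and detoxification. By edgeR, 979 of 13547 tested genes were higher at day 7 (7.23% of those tested) and 737 were lower (5.44%), at an adjusted p under 0.05, together 1716 (12.7%). At an unadjusted p under 0.05 there were 3659 (27%). In 1905 genes (14.1%) every day 7 library lay above every undamaged one, and in 1358 (10%) below. With replicate 1 as the only day 7 library the counts were 277 and 111. That fit takes the spread from the other groups and assumes that the lone library varies like them, here and wherever replicate 1 alone is given. Without the undamaged libraries A6 and B7 they were 1125 and 1156. Without each day 7 library in turn they were 586 and 335 (without 1), 674 and 425 (without 1B) and 668 and 411 (without 4B). A covariate for Xist gave 544 and 230. The median log2 difference over all tested genes was -0.02.

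**Figure D1:**
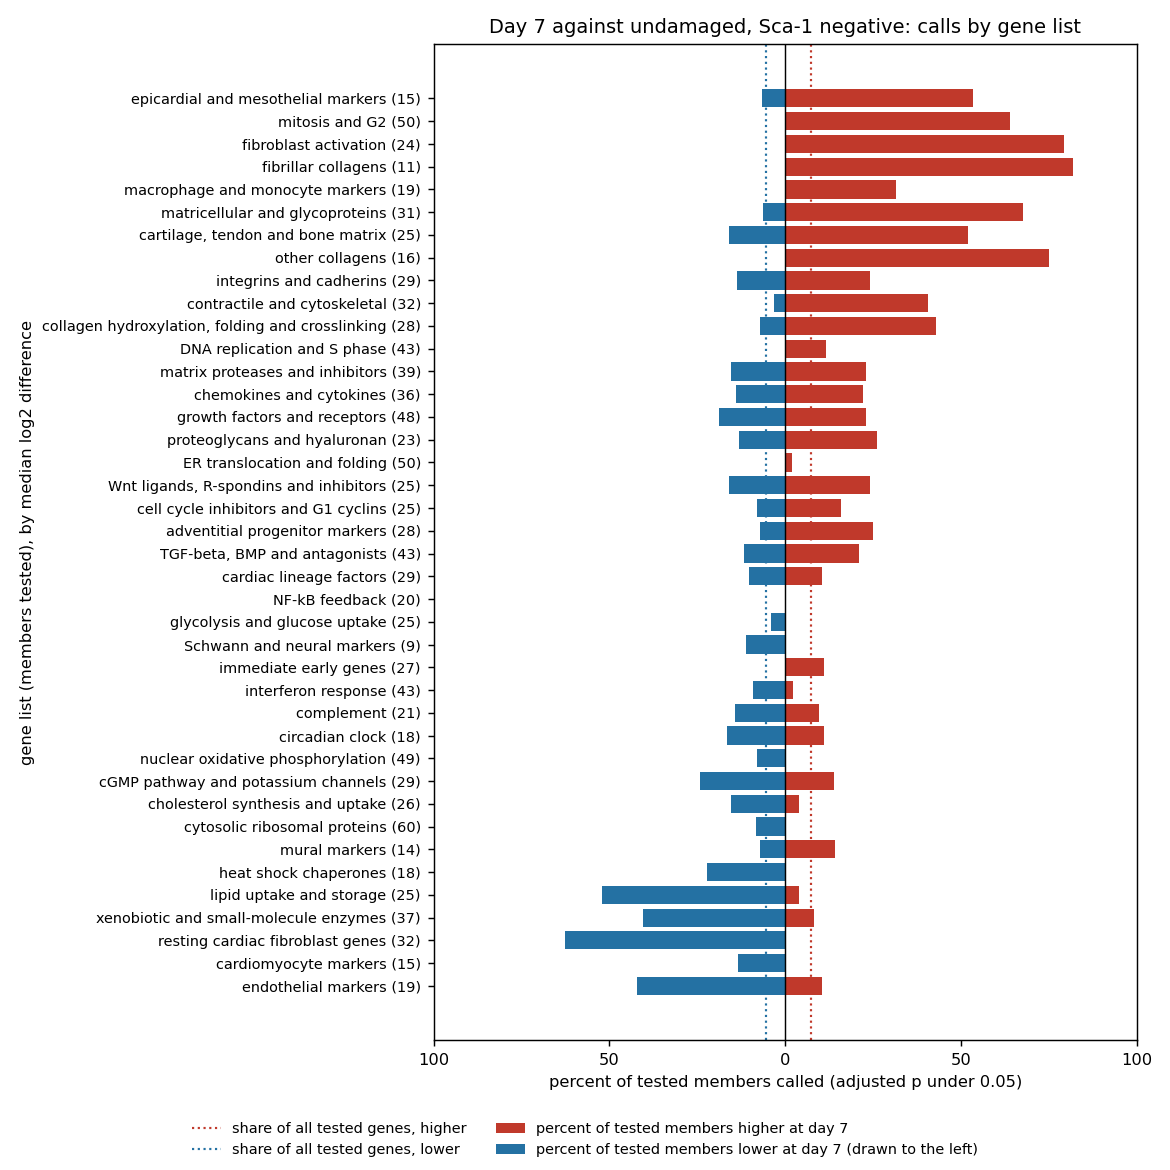
Percent of tested members called higher (red, to the right) or lower (blue, to the left) at day 7 for each gene list with at least 5 tested members, in Sca-1 negative libraries. Lists run from the highest median log2 difference at the top to the lowest at the bottom, and dotted lines mark the shares over all tested genes (7.23% higher, 5.44% lower): fibrillar collagens and activation genes reach furthest right, resting fibroblast genes furthest left.

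Genes of fibroblast activation rose widely. Of 24 listed and tested members 19 rose and 0 fell, with a median log2 difference of 3.07. Postn, the gene of periostin, a matricellular protein of the healing heart (ENSMUSG00000027750.16, chromosome 3, 54361109 to 54391037; GRCm38 throughout), held 12937, 15101 and 9706 CPM in the day 7 libraries, against 497, 427, 422 and 376 CPM in the undamaged ones (log2 difference 4.87 ± 0.43, adjusted p = 2.34e-05). The lowest day 7 library was thus far above the highest undamaged one. Cthrc1, a secreted protein with collagen-like repeats that marks activated cardiac fibroblasts (ENSMUSG00000054196.7, chromosome 15, 39076932 to 39087121), was close to absent without injury and held 721, 792 and 358 CPM in the day 7 libraries, against 1.64, 0.601, 0.404 and 2.55 CPM in the undamaged ones (log2 difference 8.85 ± 0.57, adjusted p = 4.26e-06). Runx1, a transcription factor, held 222, 251 and 183 CPM in the day 7 libraries, against 8.53, 6.75, 5.25 and 8.23 CPM in the undamaged ones (log2 difference 4.92 ± 0.33, adjusted p = 4.26e-06). Ddah1, an enzyme that breaks down an inhibitor of nitric oxide synthase, averaged 431 ± 149 against 3.796 ± 0.8601 CPM (log2 difference 6.83 ± 0.52, adjusted p = 8.47e-06). Lrrc15, a membrane protein of activated fibroblasts, held 11.2, 44.9 and 18.1 CPM in the day 7 libraries, against 0.0682, 0, 0 and 0 CPM in the undamaged ones: 912 counts against 1, a ratio of 1483 with a 95% counting interval of 265 to 58631. The secreted matricellular protein Wisp1 (129, 259.9 and 121 CPM, against 2.66, 0.802, 0.0808 and 0 CPM undamaged) rose likewise. Other called members were Lox, Ltbp2, Cilp, Adam12, Thbs4, Tagln, Ncam1, Ckap4, Sfrp2, Comp, Acta2 and Scx. With replicate 1 as the only day 7 library 15 of the 24 were called higher, and without A6 and B7 there were 18.

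**Figure D2:**
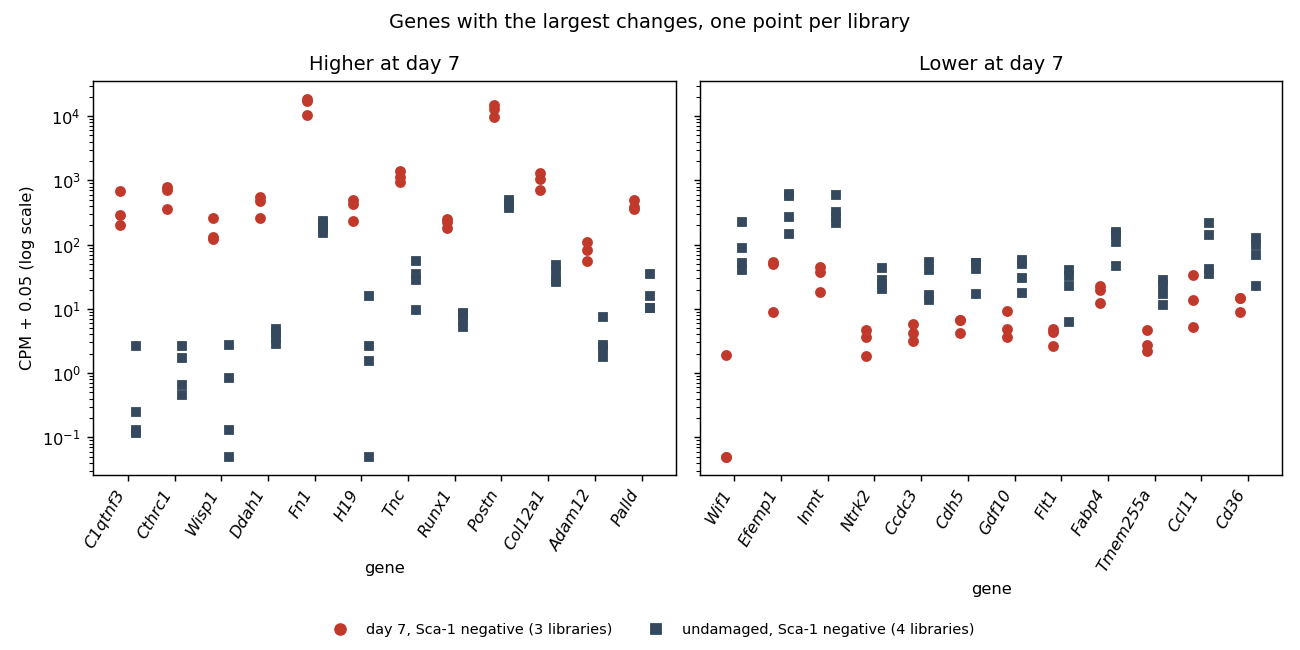
CPM plus 0.05, on a log axis, of the 12 genes with the largest rise (left) and the 12 with the largest fall (right) by the naming rule, one point per library: circles for day 7 (3 libraries), squares for undamaged (4 libraries). No day 7 point overlaps the undamaged points of its gene, and Fn1 and Postn reach 18548 and 15101 CPM at day 7.

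Fibrillar collagens, the load-bearing fibres of a scar, rose almost as a class: 9 of 11 tested members were higher and 0 lower, with a median of 2.79. Col1a1 (ENSMUSG00000001506.10, chromosome 11, 94936224 to 94953042), a chain of type I collagen, held 33929, 40247 and 32482 CPM in the day 7 libraries, against 4699, 4132, 4516 and 3222 CPM in the undamaged ones (log2 difference 3.10 ± 0.28, adjusted p = 2.9e-05). Its partner chain Col1a2 averaged 26627 ± 3547 against 3842 ± 559.6 CPM (log2 difference 2.79 ± 0.27, adjusted p = 3.81e-05), and Col3a1, type III collagen, 38566 ± 4176 against 6041 ± 693 CPM (log2 difference 2.67 ± 0.25, adjusted p = 3.4e-05). In all 3 genes every day 7 library lay above every undamaged one. Col5a2, a chain of the type V collagen that nucleates fibrils, rose to 5028, 5361 and 3413 CPM, against 756, 635, 679 and 584 CPM undamaged (log2 difference 2.79 ± 0.27, adjusted p = 3.4e-05). Cartilage-type fibrillar chains appeared from near 0. Col2a1 had 1406 counts over the 3 day 7 libraries and 0 over the 4 undamaged ones, which is at least 762-fold higher with a floor of 3 counts over the group, and Col11a1 held 111, 179 and 91.5 CPM in the day 7 libraries, against 0.478, 0.134, 2.67 and 0 CPM in the undamaged ones (log2 difference 7.41 ± 0.80, adjusted p = 8.06e-05). Of 16 other collagens 12 rose and 0 fell (median 1.04). They include Col12a1, which binds fibril surfaces (1049.9, 1303 and 702 CPM in the day 7 libraries, against 38.8, 27.9, 48.3 and 25.8 CPM in the undamaged ones; log2 difference 4.86 ± 0.47, adjusted p = 3.67e-05), Col14a1 (log2 difference 2.42 ± 0.20, adjusted p = 1.68e-05), Col8a2 (log2 difference 4.03 ± 0.38, adjusted p = 3.4e-05), Col16a1 (log2 difference 2.43 ± 0.29, adjusted p = 0.000167) and Col7a1 of anchoring fibrils (log2 difference 4.63 ± 0.65, adjusted p = 0.000599). The fibrillar count was 9 with replicate 1 alone and 10 without A6 and B7, and the other collagens 9 and 10, although only 7 other collagens were called when only prefixed-code libraries (1B and 4B against A6 and B7) entered.

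Enzymes that modify collagen inside the cell and crosslink it outside rose in part: 12 of 28 were higher and 2 lower (median 0.52). P4ha3, a subunit of the prolyl hydroxylase that stabilises the triple helix, held 109, 109 and 73.6 CPM in the day 7 libraries, against 0.546, 0.468, 0 and 1.47 CPM in the undamaged ones (log2 difference 7.18 ± 0.52, adjusted p = 5.92e-06). Plod2, the lysyl hydroxylase of crosslink sites, averaged 447 ± 76.8 against 75.2 ± 16.2 CPM (log2 difference 2.57 ± 0.25, adjusted p = 3.67e-05), and Lox, the lysyl oxidase that starts crosslinks, 2323 ± 569 against 246 ± 77.2 CPM (log2 difference 3.24 ± 0.33, adjusted p = 4.85e-05). Colgalt2, a collagen galactosyltransferase, fell (log2 difference -1.37 ± 0.18, adjusted p = 0.000401), as did Pcolce2. The count of higher members was 5 with replicate 1 alone. Genes of endoplasmic reticulum translocation and folding, which handle secreted proteins, did not follow as a list. Of 50 tested, 1 rose and 0 fell (median 0.09): Ssr2, a translocon-associated subunit (log2 difference 0.66 ± 0.13, adjusted p = 0.00425).

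Matricellular proteins and glycoproteins had 21 of 31 members higher and 2 lower (median 1.69). Fn1, the gene of fibronectin, on which other matrix proteins assemble (ENSMUSG00000026193.15, chromosome 1, 71585520 to 71653200), held 17167, 18548 and 10248 CPM in the day 7 libraries, against 209, 177, 236 and 149 CPM in the undamaged ones (log2 difference 6.31 ± 0.44, adjusted p = 4.26e-06). Its 3 day 7 values lay far above all 4 undamaged ones. Tnc, tenascin C, an anti-adhesive protein of wounds, held 944, 1422 and 1125 CPM in the day 7 libraries, against 28.3, 55.99, 34.3 and 9.42 CPM in the undamaged ones (log2 difference 5.19 ± 0.54, adjusted p = 5.91e-05). Fbn1, the fibrillin of microfibrils, averaged 5308 ± 1319 against 1452 ± 340.4 CPM (log2 difference 1.87 ± 0.27, adjusted p = 0.000734), and its partner Mfap5 1316 ± 297 against 345 ± 16.7 CPM (log2 difference 1.93 ± 0.20, adjusted p = 5.7e-05). The opposite was seen for Efemp1, a fibulin, which held 8.87, 50.5 and 53.5 CPM in the day 7 libraries, against 606, 581, 265 and 147 CPM in the undamaged ones (log2 difference -3.41 ± 0.69, adjusted p = 0.0057), and for Tnxb, tenascin X. Proteoglycan and hyaluronan genes were split, with 6 of 23 higher and 3 lower (median 0.11). Aspn, a small leucine-rich proteoglycan, rose (1787 ± 482 against 324 ± 62.5 CPM; log2 difference 2.46 ± 0.25, adjusted p = 4.7e-05), and so did Acan, the large cartilage proteoglycan (56.3, 42.7 and 21.8 CPM in the day 7 libraries, against 0.0682, 0, 0 and 1.08 CPM in the undamaged ones; log2 difference 6.95 ± 0.78, adjusted p = 9.98e-05), and Cemip, which takes part in hyaluronan breakdown (36.6, 97.5 and 23.1 CPM at day 7, against 0.409, 0, 0 and 0 CPM undamaged). Dcn, decorin, an abundant collagen-binding proteoglycan, fell to 7473, 8988 and 8071 CPM at day 7, against 20579, 19422, 17638 and 20425 CPM undamaged (log2 difference -1.25 ± 0.21, adjusted p = 0.00201). Bgn, Fmod and Tmem2 also rose, Podn and Prelp also fell.

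Matrix proteases and their inhibitors moved in both directions, 9 of 39 up and 6 down (median 0.36). Adam12, a membrane metalloprotease, held 54.8, 109 and 83.5 CPM in the day 7 libraries, against 2.73, 1.74, 7.44 and 2.38 CPM in the undamaged ones (log2 difference 4.55 ± 0.56, adjusted p = 0.00021). Adamts2, which cuts the amino propeptide off procollagen, averaged 1359.7 ± 344 against 463 ± 43.7 CPM (log2 difference 1.55 ± 0.20, adjusted p = 0.000302), and Adamts12 99.9 ± 12.5 against 21.4 ± 8.399 CPM (log2 difference 2.22 ± 0.30, adjusted p = 0.000531). Adamts16 had 797 counts at day 7 and 0 undamaged, at least 432-fold higher. The inhibitor Timp1 rose while Timp3 and Timp4 fell. Mmp14 and Ctsk, a membrane collagenase and a collagen-cleaving cathepsin, rose, and Mmp3, Adamts5, Htra1 and Htra3 fell.

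Contractile and cytoskeletal genes had 13 of 32 members higher and 1 lower (median 0.64). Acta2, smooth muscle actin, whose protein defines myofibroblasts (ENSMUSG00000035783.9, chromosome 19, 34241090 to 34255590), held 201, 455 and 149 CPM in the day 7 libraries, against 50.6, 47.8, 67.8 and 34.3 CPM in the undamaged ones (log2 difference 2.42 ± 0.46, adjusted p = 0.00427). Tagln, a calponin-related actin binder, averaged 275 ± 148 against 53.2 ± 13.6 CPM (log2 difference 2.37 ± 0.34, adjusted p = 0.000746). In both genes 1B was more than 2 times as high as the other day 7 libraries, and all 3 lay above every undamaged library. Actn1, which crosslinks actin at adhesions, and Palld, an actin scaffold, rose with less spread (477 ± 105 against 75.6 ± 8.21 CPM, log2 difference 2.66 ± 0.23, adjusted p = 2.34e-05, for Actn1; 414 ± 72.6 against 17.8 ± 11.7 CPM, log2 difference 4.55 ± 0.46, adjusted p = 5.31e-05, for Palld). Itga11, the collagen-binding integrin subunit of fibroblasts, rose (log2 difference 1.48 ± 0.26, adjusted p = 0.00247), as did Vcl, Tpm1, Myh9, Myh10, Pdlim7, Tpm2, Cnn2 and Cnn3. The one fall was in Lmod1. With replicate 1 alone 4 of 32 were called and Acta2 was not, nor was Acta2 among prefixed-code libraries. Mural markers, which include smooth muscle genes, overlapped in their sums above. Of 14 tested, 2 were higher (Cspg4 and Des) and 1 lower (Abcc9), and without A6 and B7 there were 1 higher and 6 lower. The part of mural cells in the contractile genes was not tested.

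Genes of cartilage, tendon and bone matrix had 13 of 25 tested members higher and 4 lower (median 1.28). Without A6 and B7 there were 14 higher and 3 lower (median 3.04). Matn4, a matrilin of cartilage, held 54.1, 39.4 and 59.1 CPM in the day 7 libraries, against 2.18, 2.81, 3.48 and 2.33 CPM in the undamaged ones (log2 difference 4.24 ± 0.29, adjusted p = 4.26e-06). Besides Col2a1, Col11a1 and Acan, described above, the list's higher members were Cilp, Thbs4, Matn3, Comp, Fmod, Cilp2, Sox9, Tnmd and Scx. The last 3 are a cartilage transcription factor, a tendon membrane protein and a tendon transcription factor. The 4 lower members were Wif1, Alpl, Kera and Cytl1. Among adhesion molecules 7 of 29 rose and 4 fell (median 0.64). Cdh2, N-cadherin, held 117, 134 and 117 CPM in the day 7 libraries, against 7.85, 4.61, 6.71 and 7.204 CPM in the undamaged ones (log2 difference 4.21 ± 0.35, adjusted p = 1.68e-05), and Cdh11, the cadherin of mesenchymal cells, 160.1, 119 and 139 CPM in the day 7 libraries, against 20.6, 18.5, 32.1 and 46.5 CPM in the undamaged ones (log2 difference 2.24 ± 0.36, adjusted p = 0.00135). Cdh3, P-cadherin, had 2021 counts at day 7 and 3 undamaged, a ratio of 1095 with a counting interval of 374 to 5316. Ncam1, a neural cell adhesion molecule, averaged 80.02 ± 11.6 against 7.44 ± 4.82 CPM (log2 difference 3.44 ± 0.51, adjusted p = 0.000829). Kcnj15, a potassium channel, rose too (169 ± 52.7 against 12.5 ± 7.203 CPM; log2 difference 3.77 ± 0.43, adjusted p = 0.000132).

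Cell division genes were higher at day 7. Of 50 mitosis and G2 genes 32 rose and 0 fell (median 3.34), against 5 of 43 DNA replication genes (0 fell, median 0.39). Mki67, which encodes the proliferation antigen Ki-67 (ENSMUSG00000031004.8, chromosome 7, 135689784 to 135716361), held 15.9, 24.5 and 14.5 CPM in the day 7 libraries, against 0.273, 0.869, 0 and 1.87 CPM in the undamaged ones (log2 difference 4.54 ± 0.84, adjusted p = 0.00365). Kif23, a kinesin of the dividing cell's midbody, held 4.88, 8.57 and 4.32 CPM in the day 7 libraries, against 0.136, 0.2004, 0.0808 and 0 CPM in the undamaged ones (log2 difference 5.76 ± 0.82, adjusted p = 0.000644), and Birc5, survivin, 4.36, 3.301 and 3.57 CPM in the day 7 libraries, against 0.205, 0.134, 0 and 0 CPM in the undamaged ones (log2 difference 5.36 ± 0.94, adjusted p = 0.00247). Dlgap5, a spindle protein, had 111 counts at day 7 and 0 undamaged, at least 60.2-fold higher. The levels were low: these 4 genes did not pass 25 CPM in any library. Anln, a cytokinesis scaffold, averaged 14.98 ± 2.397 against 2.88 ± 1.59 CPM (log2 difference 2.37 ± 0.43, adjusted p = 0.00294). Among replication genes Mcm6, a subunit of the replicative helicase, averaged 43.1 ± 5.67 against 26.6 ± 1.802 CPM (log2 difference 0.70 ± 0.17, adjusted p = 0.0178), and Rrm2, a ribonucleotide reductase subunit, 8.94 ± 1.95 against 3.15 ± 1.395 CPM (log2 difference 1.504 ± 0.40, adjusted p = 0.0244). The mitotic count was 2 with replicate 1 alone, 13 among prefixed-code libraries, 17 with Xist as a covariate and 39 without A6 and B7, while the list median stayed between 3.34 and 4.04.

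Inhibitors and cyclins of the G1 phase had 4 of 25 higher and 2 lower. Cdkn1c, the inhibitor p57, fell (25.8 ± 5.698 against 64.1 ± 9.59 CPM; log2 difference -1.31 ± 0.19, adjusted p = 0.000819) and Cdkn2b, the inhibitor p15, rose (15.6 ± 0.271 against 5.72 ± 2.27 CPM; log2 difference 1.45 ± 0.35, adjusted p = 0.0151). Ccnd1, cyclin D1, fell with overlap between the groups (33.2, 109 and 59.1 CPM in the day 7 libraries, against 173, 181, 211 and 107 CPM in the undamaged ones; log2 difference -1.32 ± 0.33, adjusted p = 0.019).

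Promoters of 3 mitotic members are printed because 32 of the list's 50 tested members rose and genes of this kind are known to share the CHR element (TTTGAA, the cell cycle genes homology region) and the CCAAT box. The sequences are RefSeq windows (GRCm38.p6) from 250 bases before to 50 after the annotated start, read 5′ to 3′ on the gene's strand, with each match of either motif on either strand in capitals. Kif23 (chr9:61946750-61947049, minus strand) and Mki67 (chr7:135716330-135716629, minus strand) hold both motifs, and Birc5 (chr11:117848987-117849286, plus strand) holds neither.
Kif23: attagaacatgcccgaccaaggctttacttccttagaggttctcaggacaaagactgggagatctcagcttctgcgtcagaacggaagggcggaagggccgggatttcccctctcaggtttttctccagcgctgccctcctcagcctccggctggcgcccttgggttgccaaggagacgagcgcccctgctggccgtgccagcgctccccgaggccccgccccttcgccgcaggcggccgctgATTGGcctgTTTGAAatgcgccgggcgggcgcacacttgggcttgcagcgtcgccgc
Mki67: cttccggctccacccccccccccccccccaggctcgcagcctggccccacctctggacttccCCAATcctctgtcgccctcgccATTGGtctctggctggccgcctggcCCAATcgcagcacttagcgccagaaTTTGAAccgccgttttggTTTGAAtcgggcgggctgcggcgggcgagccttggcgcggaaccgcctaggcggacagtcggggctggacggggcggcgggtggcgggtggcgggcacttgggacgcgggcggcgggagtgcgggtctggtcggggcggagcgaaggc
Birc5: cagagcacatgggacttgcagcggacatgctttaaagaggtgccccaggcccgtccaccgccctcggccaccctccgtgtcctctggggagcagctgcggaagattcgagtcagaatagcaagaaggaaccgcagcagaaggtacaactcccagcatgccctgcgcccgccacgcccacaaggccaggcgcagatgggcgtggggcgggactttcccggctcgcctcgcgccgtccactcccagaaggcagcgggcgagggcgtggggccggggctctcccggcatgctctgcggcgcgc
TTTGAA was found in 29 of the 39 mitotic members with a window (74.4%), against 11.6% of the 10277 tested genes with one and 18.1% of all 27025 windows. CCAAT was found in 30 of 39 (76.9%), against 38.3% and 37.9%, and both motifs together in 25 of 39 (64.1%), against 4.77% and 7.12%. Among the 716 genes with a window that were higher at day 7, 13.1% held TTTGAA, close to the share of all tested genes. The E2F motif GCGGGAA stood in 15 of 34 replication genes (44.1%), against 8.46% of tested genes. The CArG box of serum response factor stood in 4 of 28 contractile genes (14.3%, against 1.31%) and the TEAD motif GGAATG in 2 of 18 matricellular genes (11.1%, against 12.1%). A TTTGAA match and a CCAAT match can share at most 1 letter, and a match describes a window only.

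**Figure D3:**
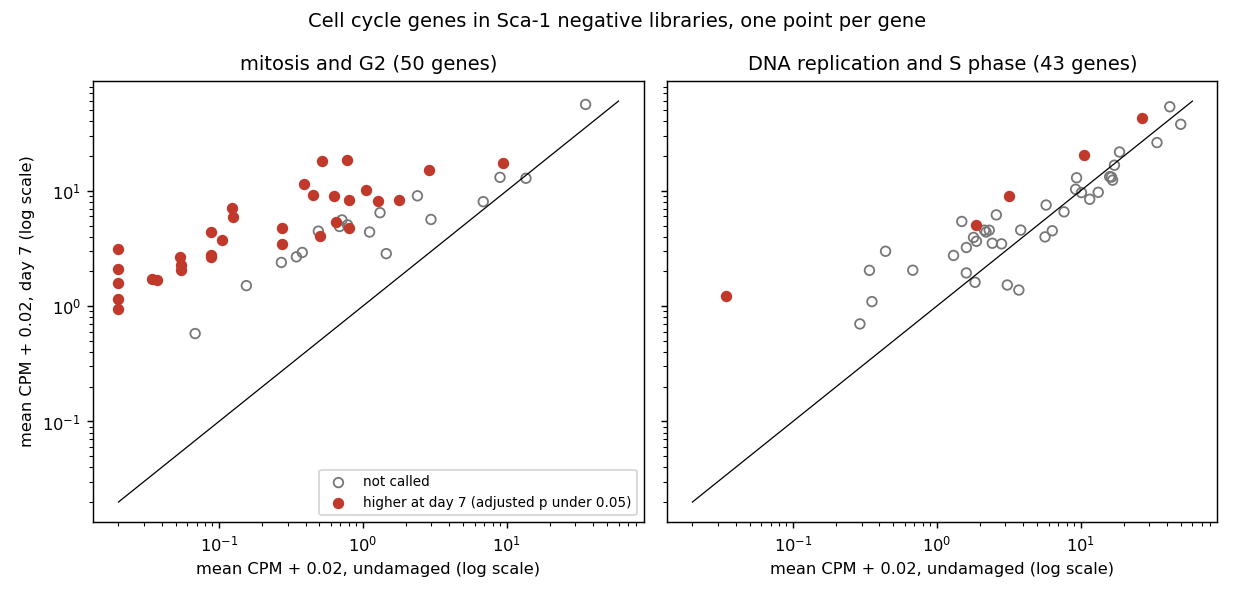
Mean CPM plus 0.02 at day 7 (vertical, log axis) against undamaged (horizontal, log axis) for the tested mitosis and G2 genes (left) and DNA replication genes (right), one point per gene, with a line of equality. Filled points are genes higher at day 7, 32 of 50 on the left and 5 of 43 on the right, and most mitotic genes stand well above the line at low levels.

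Genes of resting cardiac fibroblasts fell: 20 of 32 were lower and 0 higher (median -1.14). Gsn, gelsolin, which severs actin filaments (ENSMUSG00000026879.14, chromosome 2, 35256380 to 35307892), held 10175, 12214 and 12462 CPM in the day 7 libraries, against 37399, 41731, 37882 and 38423 CPM in the undamaged ones (log2 difference -1.74 ± 0.26, adjusted p = 0.000822). Tcf21, the fibroblast lineage transcription factor, held 116, 87.2 and 91.2 CPM in the day 7 libraries, against 222, 291, 141 and 236 CPM in the undamaged ones (log2 difference -1.18 ± 0.30, adjusted p = 0.0193), a call that was lost under 5 alternatives, among them replicate 1 alone. Inmt, a methyltransferase of small amines, held 18.03, 37.9 and 44.001 CPM in the day 7 libraries, against 325, 216, 268 and 589.9 CPM in the undamaged ones (log2 difference -3.39 ± 0.46, adjusted p = 0.000458). Fmo2, a monooxygenase, averaged 92.3 ± 19.2 against 378 ± 104 CPM (log2 difference -2.03 ± 0.32, adjusted p = 0.00109) and Abca8a, a lipid transporter family member, 757 ± 155 against 1929 ± 288 CPM (log2 difference -1.35 ± 0.21, adjusted p = 0.00123). The other lower members were Dpep1, Dcn, Abca8b, Smoc2, Htra3, Hsd11b1, Scn7a, Clec3b, Cxcl14, Tnxb, Abca6, Gpx3, Entpd2, Abca9 and Pdgfra. The count was 7 with replicate 1 alone, 8 among prefixed-code libraries, 13 with Xist as a covariate and 21 without A6 and B7. Adventitial progenitor markers, by contrast, had 7 of 28 higher and 2 lower with a median of 0.02. Without A6 and B7 they had 7 higher and 6 lower (median -0.09). In the main fit the higher ones included Fn1, Mfap5, Fbn1 and Thy1. Igfbp5, a growth factor binding protein, was one of the 2 lower (215, 105 and 228 CPM in the day 7 libraries, against 807, 829, 764 and 297 CPM in the undamaged ones; log2 difference -1.88 ± 0.38, adjusted p = 0.00619).

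Xenobiotic and small-molecule enzymes had 15 of 37 members lower and 3 higher (median -1.07). Gstm1, a glutathione transferase, held 138, 249.7 and 189 CPM in the day 7 libraries, against 891, 1158, 731 and 653 CPM in the undamaged ones (log2 difference -2.16 ± 0.26, adjusted p = 0.000174). Gstt1 averaged 44.5 ± 4.91 against 157 ± 13.7 CPM (log2 difference -1.82 ± 0.22, adjusted p = 0.000173) and the aldehyde oxidase Aox1 23.4 ± 4.49 against 77.2 ± 11.99 CPM (log2 difference -1.73 ± 0.19, adjusted p = 8.47e-05). The 3 higher members were Crabp2, Ephx2 and Cyp26b1, of which Crabp2 and Cyp26b1 bind and degrade retinoic acid. Lipid uptake and storage genes had 13 of 25 lower and 1 higher (median -1.06). Apoe, apolipoprotein E, held 961, 1073 and 1664 CPM in the day 7 libraries, against 4792, 4944, 3817 and 4149 CPM in the undamaged ones (log2 difference -1.84 ± 0.28, adjusted p = 0.000901), and G0s2, an inhibitor of triglyceride lipase, 29.3, 75.3 and 58.1 CPM in the day 7 libraries, against 212, 291, 227 and 377 CPM in the undamaged ones (log2 difference -2.35 ± 0.33, adjusted p = 0.000616). Fabp4 (log2 difference -2.66 ± 0.50, adjusted p = 0.00391) and Cd36 (log2 difference -2.60 ± 0.56, adjusted p = 0.00811), which bind and import fatty acids, are also on the endothelial list, whose summed level was lower at day 7 too. The part of endothelial cells in their fall was not tested. With replicate 1 alone 8 xenobiotic and 2 lipid genes were lower, and with Xist as a covariate 11 and 3. Cholesterol genes had 4 of 26 lower and 1 higher (median -0.55), and Insig2, which restrains sterol synthesis, was the member with the smallest p (log2 difference -0.79 ± 0.16, adjusted p = 0.00585).

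Among Wnt ligands, R-spondins and inhibitors 6 of 25 rose and 4 fell (median 0.07), and the inhibitors themselves split. Wif1, a secreted protein that binds Wnt ligands (ENSMUSG00000020218.11, chromosome 10, 121033960 to 121100650), held 0, 1.89 and 0 CPM in the day 7 libraries, against 40.7, 52.4, 222 and 87.9 CPM in the undamaged ones (log2 difference -7.26 ± 0.99, adjusted p = 0.000517). It was at 0 in 2 of 3 day 7 libraries. Sfrp1 and Sfrp2, secreted frizzled-related Wnt binders, rose instead: Sfrp1 held 1154, 1165 and 828 CPM in the day 7 libraries, against 306, 307, 349.7 and 303 CPM in the undamaged ones (log2 difference 1.73 ± 0.21, adjusted p = 0.00019) and Sfrp2 1966, 1055 and 854 CPM in the day 7 libraries, against 74.99, 131, 313 and 336 CPM in the undamaged ones (log2 difference 2.60 ± 0.45, adjusted p = 0.00235). Nkd2, an intracellular inhibitor, rose (log2 difference 2.15 ± 0.38, adjusted p = 0.00253), and Axin2, a target and inhibitor of the pathway, fell. Wnt4, Wnt2 and the antagonist Dkk2 rose, and Wnt6 and Sost fell.

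TGF-beta and BMP genes had 9 of 43 higher and 5 lower (median -0.03). Of the ligands, Tgfb3 held 822, 909 and 916 CPM in the day 7 libraries, against 179, 165, 217 and 199 CPM in the undamaged ones (log2 difference 2.22 ± 0.22, adjusted p = 4.7e-05), Tgfb1, Inhba and Gdf6 rose as well, and Bmp4 fell. Gdf10, a BMP-related ligand, held 3.61, 4.87 and 9.31 CPM in the day 7 libraries, against 58.1, 17.8, 49.2 and 29.7 CPM in the undamaged ones (log2 difference -2.71 ± 0.44, adjusted p = 0.0014). Ltbp2, a microfibril-associated member of the latent TGF-beta binding protein family, averaged 2944 ± 1020.3 against 156 ± 53.2 CPM (log2 difference 4.24 ± 0.44, adjusted p = 6.25e-05), and Ltbp1 fell. Bmp1, the protease that cuts the carboxy propeptide off procollagen, rose (log2 difference 1.32 ± 0.20, adjusted p = 0.00105), as did Fstl1, a secreted follistatin-like glycoprotein (6080.4 ± 1057 against 1714 ± 135 CPM; log2 difference 1.83 ± 0.20, adjusted p = 9.81e-05). The coreceptor Tgfbr3 was lower. Growth factors and receptors had 11 of 48 higher and 9 lower (median 0.12). Mdk and Ptn, related heparin-binding growth factors, averaged 125 ± 29.1 against 26.4 ± 6.27 CPM (log2 difference 2.24 ± 0.21, adjusted p = 3.4e-05) and 404 ± 107 against 59.4 ± 10.4 CPM (log2 difference 2.77 ± 0.29, adjusted p = 6.41e-05). Sdc1, a heparan sulfate proteoglycan of the cell surface, rose (log2 difference 1.56 ± 0.26, adjusted p = 0.00192). Ntrk2, the receptor of brain-derived neurotrophic factor, held 3.53, 1.81 and 4.701 CPM in the day 7 libraries, against 27.8, 23.9, 42.8 and 20.02 CPM in the undamaged ones (log2 difference -3.10 ± 0.43, adjusted p = 0.000568).

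Chemokines and cytokines had 8 of 36 higher and 5 lower (median 0.18), 0 and 1 with replicate 1 alone. Without A6 and B7 there were 3 higher and 6 lower (median -0.20), and among prefixed-code libraries 9 and 1 (median 1.03). The balance of this list thus turned on which undamaged libraries were used. Il1rl1, the receptor of interleukin 33, had 70 counts at day 7 and 0 undamaged, at least 37.9-fold higher. Cxcl14 (199 ± 71.8 against 759.8 ± 229.9 CPM; log2 difference -1.93 ± 0.41, adjusted p = 0.00841) and Ccl19 (log2 difference -1.76 ± 0.37, adjusted p = 0.00769) fell. Ccl11, eotaxin, was lower too (5.18, 34.03 and 13.5 CPM in the day 7 libraries, against 214, 141, 34.4 and 41.5 CPM in the undamaged ones; log2 difference -2.61 ± 0.79, adjusted p = 0.0439), with a highest day 7 value just under the lowest undamaged one. Complement genes had 2 of 21 higher and 3 lower. The 2 higher were C1qa and C1qb (3.38, 8.65 and 6.299 CPM at day 7, against 0.751, 0.2004, 1.37 and 0.1702 CPM undamaged, for C1qb), which are also macrophage markers. Without A6 and B7 there were 4 higher and 7 lower complement genes. Interferon response genes had 1 of 43 higher and 4 lower, and 2 and 11 without A6 and B7. NF-kB feedback genes had 0 of 20 called, and 1 lower without A6 and B7.

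Stress, translation and energy genes had few calls, or calls whose number changed without A6 and B7. Heat shock chaperones had 4 of 18 lower (median -1.01). Hspa1b held 509, 358 and 503 CPM in the day 7 libraries, against 3514, 3289, 1597 and 1269 CPM in the undamaged ones (log2 difference -2.40 ± 0.48, adjusted p = 0.00546); its near-identical neighbour Hspa1a can share reads with it. Without A6 and B7 there were 10 lower, and among prefixed-code libraries the median was -0.03. Cytosolic ribosomal protein genes had 5 of 60 lower (median -0.57), 32 without A6 and B7 and 0 among prefixed-code libraries. Of 49 nuclear oxidative phosphorylation genes 4 were lower (median -0.36), such as Atp5h (log2 difference -0.97 ± 0.21, adjusted p = 0.00773). Glycolysis genes had 1 of 25 lower, Ldhb (log2 difference -1.09 ± 0.28, adjusted p = 0.0222), a call lost under 7 alternatives. Without A6 and B7 there were 6 lower (median -0.37). Prefixed-code libraries gave 1 higher and 0 lower (median 0.36). Of 27 immediate early genes 3 were higher, Egr3 (log2 difference 1.499 ± 0.33, adjusted p = 0.00919), Nr4a2 and Egr2. Clock genes had 2 of 18 higher, Arntl and Bhlhe41, and 3 lower, Hlf, Nr1d1 and Tef, and the hour of collection is not given in the sources used here.

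Among potassium channel and cGMP pathway genes 4 of 29 rose and 7 fell. Mrvi1, a substrate of cGMP-dependent kinase, averaged 15.3 ± 6.95 against 46.9 ± 7.38 CPM (log2 difference -1.62 ± 0.28, adjusted p = 0.00253), and Abcc9, a regulatory subunit of ATP-sensitive potassium channels that is also a mural marker, held 9.09, 42.05 and 49.4 CPM in the day 7 libraries, against 197, 206, 152 and 81.4 CPM in the undamaged ones (log2 difference -2.25 ± 0.47, adjusted p = 0.00709). Kcnma1, the large-conductance calcium-activated channel, rose (33.2 ± 6.06 against 5.88 ± 3.96 CPM; log2 difference 2.51 ± 0.46, adjusted p = 0.00345). Of 29 cardiac lineage factors 3 rose and 3 fell. Tead1, the DNA-binding partner of the Hippo effector Yap, averaged 209 ± 38.99 against 97.7 ± 11.7 CPM (log2 difference 1.10 ± 0.18, adjusted p = 0.00147), and Prrx2 rose (log2 difference 2.48 ± 0.52, adjusted p = 0.00691). Hand2, a heart-forming transcription factor, fell (16.9 ± 1.08 against 40.6 ± 12.8 CPM; log2 difference -1.26 ± 0.25, adjusted p = 0.00569).

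Single markers of other cell types were called as well. Of 15 epicardial and mesothelial genes 8 were higher and 1 lower (median 4.10), and 14 had a positive log2 difference, although the summed level overlapped. The lower one, Tcf21, is a large part of the undamaged sums. Their overlap therefore does not show that the other members stayed level. Lrrn4 held 5.26, 7.94 and 13.9 CPM in the day 7 libraries, against 0.0682, 0, 0 and 0 CPM in the undamaged ones, with 319 counts at day 7 and 1 undamaged, a ratio of 519 (counting interval 92.4 to 20549). Upk1b had 406 counts against 2, a ratio of 330.1 (90.8 to 2735), and Bnc1 137 against 1, a ratio of 223 (39.3 to 8861). Erg, a transcription factor on the endothelial list, rose (64.8, 36.1 and 54.6 CPM in the day 7 libraries, against 6.62, 3.88, 3.396 and 3.01 CPM in the undamaged ones; log2 difference 3.62 ± 0.50, adjusted p = 0.000583) while Cdh5 (log2 difference -2.77 ± 0.57, adjusted p = 0.00645) and Flt1 (log2 difference -2.69 ± 0.53, adjusted p = 0.00546) of the same list fell. Without A6 and B7, 16 of the 19 endothelial genes were lower and 1 higher. Macrophage Csf1r, the receptor of macrophage colony-stimulating factor, held 4.28, 7.31 and 9.21 CPM in the day 7 libraries, against 2.25, 1.14, 0.243 and 0.227 CPM in the undamaged ones (log2 difference 2.84 ± 0.74, adjusted p = 0.0222). Cspg4, a pericyte proteoglycan on the mural list, rose (50.6 ± 10.8 against 10.6 ± 6.82 CPM; log2 difference 2.25 ± 0.40, adjusted p = 0.00268). H19, an imprinted noncoding RNA expressed in the embryo, held 232, 424 and 493 CPM in the day 7 libraries, against 15.6, 1.47, 2.59 and 0 CPM in the undamaged ones (log2 difference 6.29 ± 1.04, adjusted p = 0.00171), and C1qtnf3, a secreted protein of the C1q and tumour necrosis factor family, 203, 686 and 292 CPM in the day 7 libraries, against 0.0682, 0.2004, 0.0808 and 2.61 CPM in the undamaged ones (log2 difference 8.91 ± 0.81, adjusted p = 2.75e-05).

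Set against Sca-1 negative cells of day 28 (3 libraries, E4, B4 and B6), day 7 had 371 genes higher (2.74%) and 353 lower (2.61%), together 724 (5.34%), and 2673 (19.7%) at an unadjusted p under 0.05. This contrast shares the day 7 libraries with the one above. Fibrillar collagens had 9 of 11 higher (0 lower), activation genes 12 of 24, and mitosis genes 6 of 50. Resting fibroblast genes had 16 of 32 lower and xenobiotic enzymes 13 of 37, while of 15 epicardial genes 0 were higher. Cthrc1 held 721, 792 and 358 CPM at day 7, against 76.4, 36.8 and 29.3 CPM at day 28 (log2 difference 3.72 ± 0.50, adjusted p = 0.00244). Col1a1 held 33929, 40247 and 32482 CPM, against 11352, 8638 and 7812 CPM at day 28 (log2 difference 1.94 ± 0.30, adjusted p = 0.00433). Gsn held 10175, 12214 and 12462 CPM, against 30312, 50134 and 50699.5 CPM (log2 difference -1.91 ± 0.27, adjusted p = 0.00283), and Inmt 18.03, 37.9 and 44.001 CPM, against 252, 506 and 726 CPM (log2 difference -3.89 ± 0.48, adjusted p = 0.00186). Adhesion and signalling genes that differed from undamaged cells did not all differ from day 28. Ncam1 stood at 62.3, 26.1 and 39.95 CPM at day 28 (log2 difference 0.91 ± 0.51, adjusted p = 0.348), Sfrp1 at 695, 1036 and 1019.7 CPM (log2 difference 0.20 ± 0.22, adjusted p = 0.691) and Wif1 at 0.451, 0.283 and 0.0683 CPM (log2 difference 1.33 ± 1.48, adjusted p = 0.68). The counts depended on libraries of both times: 359 higher and 468 lower without the day 28 library E4, 86 and 77 without B4, 77 and 80 without B6, and 4 and 3 with replicate 1 as the only day 7 library. Without a day 7 library they were 153 and 117 (1), 187 and 137 (1B) and 147 and 126 (4B).

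**Figure D4:**
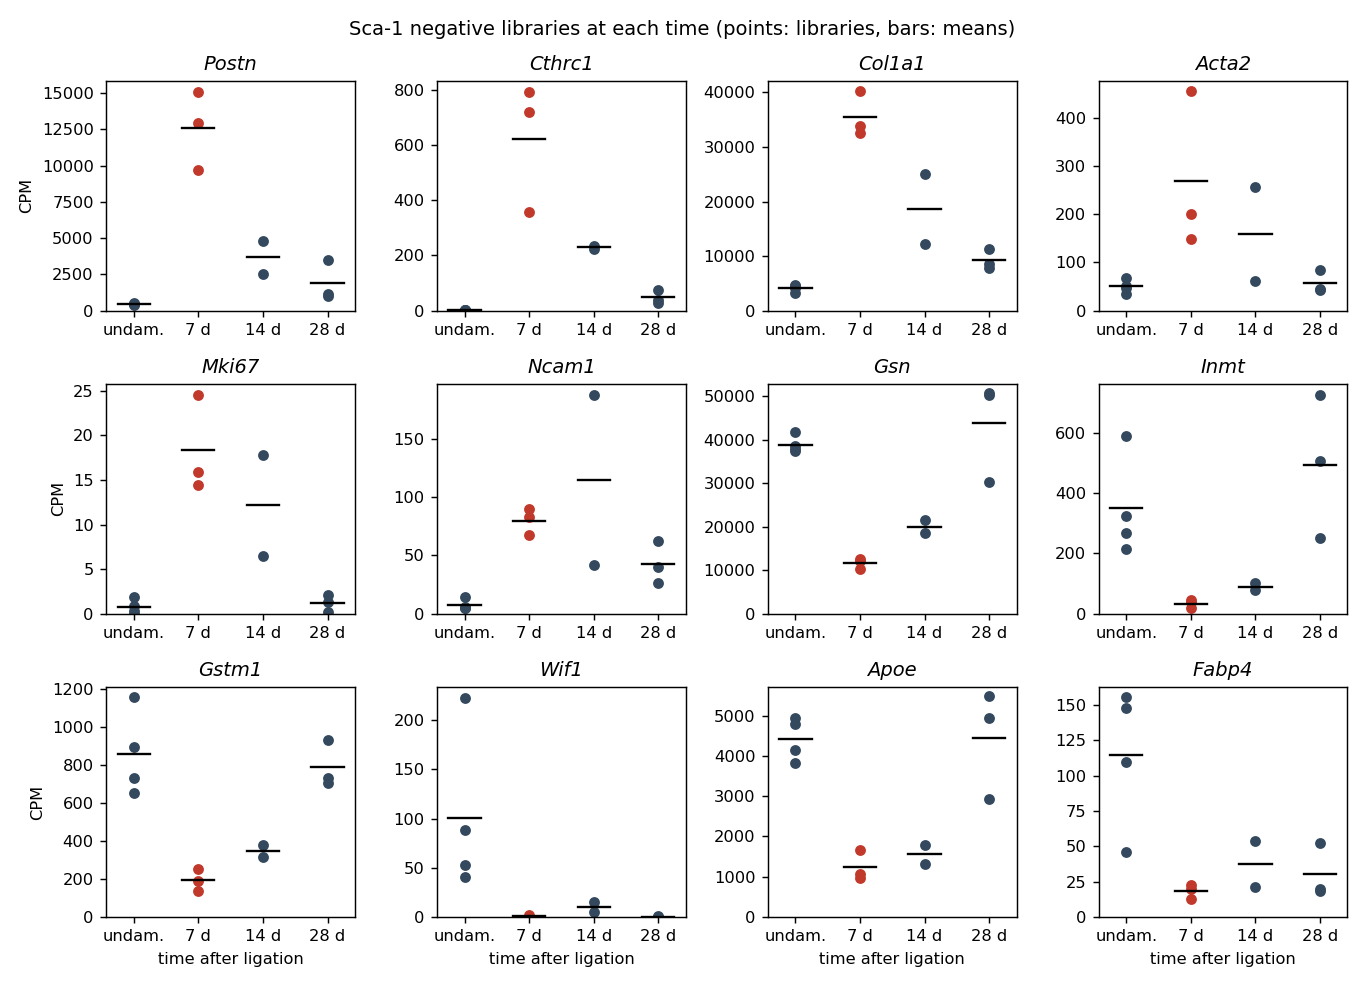
CPM of 12 genes in Sca-1 negative libraries at each time after ligation (undamaged, 7, 14 and 28 days), one point per library with bars at the means and day 7 in red. Postn, Cthrc1 and Col1a1 are highest at day 7 and Gsn, Inmt and Apoe lowest, while Wif1 and Fabp4 are low at both day 7 and day 28.

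Against day 14 (2 libraries, D1 and D9) edgeR called 0 genes in either direction, with 658 (4.86%) at an unadjusted p under 0.05. DESeq2 called 17 higher and 8 lower, limma-voom 6 and 0, and limma-voom with the replicate codes as a block over 26 libraries 18 and 2. Cthrc1 held 222 and 236 CPM in the day 14 libraries (log2 difference 1.45 ± 0.53, adjusted p = 0.819), Postn 4819 and 2516 CPM (log2 difference 1.78 ± 0.49, adjusted p = 0.658), Mki67 17.8 and 6.499 CPM (log2 difference 0.60 ± 0.90, adjusted p = 1) and Gsn 18544 and 21412 CPM (log2 difference -0.78 ± 0.29, adjusted p = 0.82). In each of these genes the day 14 values lay between the day 7 and the undamaged ones or among the day 7 ones.

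The change at day 7 was also tested against that of Sca-1 positive cells (3 libraries at day 7, of which 2 are gated by file name, and 5 undamaged). Of 14052 genes 1 differed (0.00712%), and 840 (5.98%) had an unadjusted p under 0.05; DESeq2 called 23 higher and 5 lower. The called gene was Mfap5, a microfibril glycoprotein (ENSMUSG00000030116.14, chromosome 6, 122505845 to 122529290). In the negative gate it held 1558, 1405 and 985 CPM in the day 7 libraries, against 348, 327, 367 and 339 CPM in the undamaged ones. In the positive gate it held 1411, 1237 and 1222 CPM at day 7 (1, 1A, 4A), against 1202, 1096, 862, 861 and 1054 CPM undamaged (E1, E3, F3, A6, B7). Its change was larger in the negative gate by 1.58 ± 0.24 log2, adjusted p = 0.0138. The day 7 means were 1316 ± 297 CPM in the negative and 1289.9 ± 105 CPM in the positive gate. The call was lost without day 7 replicate 1 or 1B of the negative gate and without 1A or 4A of the positive gate, with replicate 1 of each gate as the only day 7 library, among prefixed-code libraries, with code family as a covariate and without the prefixed undamaged libraries. The fit with code family also leaves out day 7 replicate 1 of both gates. Fn1 changed by 3.13 log2 more in the negative gate and missed the threshold (adjusted p = 0.166), as did C1qtnf3 (3.81 ± 1.08, adjusted p = 0.442) and Postn (1.75 ± 0.72, adjusted p = 0.716). A p that misses the threshold does not show that the gates change alike.

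**Figure D5:**
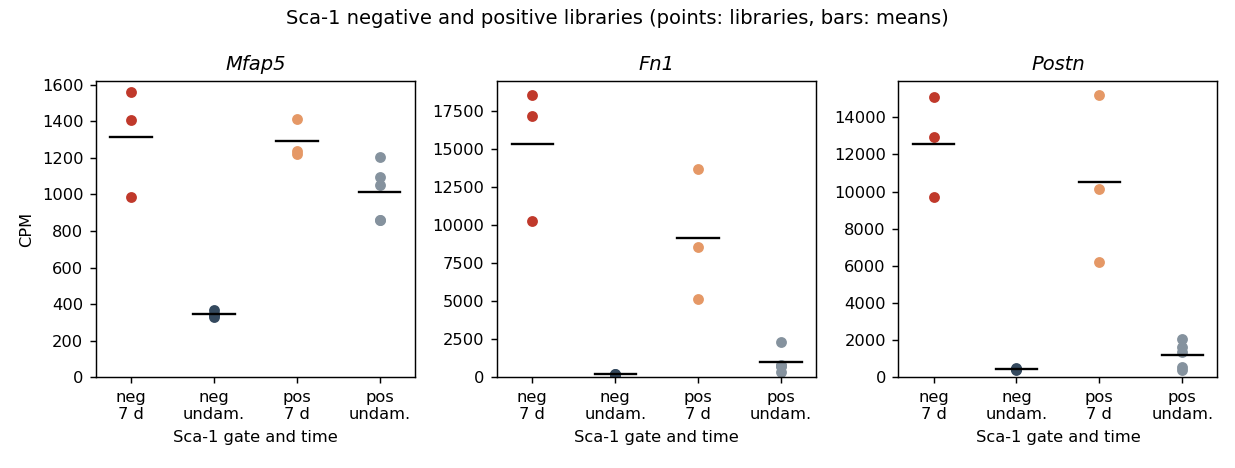
CPM of Mfap5, Fn1 and Postn in Sca-1 negative (neg) and positive (pos) libraries at day 7 (7 d) and undamaged (undam.), one point per library with bars at the means. Mfap5 lies between 985 and 1558 CPM in the day 7 negative libraries and between 327 and 367 CPM in the undamaged negative ones, whereas its positive-gate groups lie closer together.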

How the data were processed

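As deposited, each library is a table of counts, whole reads for each of 24421 genes. The submitters' processing notes name STAR, TopHat, Bowtie2, Cufflinks and bcl2fastq and the mm10 genome. Which program counted reads, with what annotation and strand setting, is not given in the sources used here, so overlapping genes, antisense partners and near-identical paralogs can share reads. Entries that name no gene, reads outside genes (6.77% to 13.5% of the 7 libraries) and ambiguous reads (0.2995% to 0.646%), were left out. Of the symbols, 23376 (95.7%) matched GENCODE M21, the source of identifiers and GRCm38 positions.

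Tests used edgeR 4.0.16 in R 4.3.3, with TMM factors, a low-count filter, quasi-likelihood fits over the 12 Sca-1 negative libraries (4 time groups, 13547 genes) and two-sided Benjamini-Hochberg adjusted p under 0.05. The test of the gates used 26 libraries in 8 groups and 14052 genes, without a block for replicate codes. Simulated data were made for the comparison of day 7 with undamaged (13547 genes), with 100 genes changed by 1 log2 and 100 by 2 log2. Of these, 28% and 86% were recovered, and 6 unchanged genes were called. The changed genes were drawn from those with a mean above 2 CPM, so the shares recovered do not cover genes at lower levels. Alternatives used DESeq2 1.42.0 and limma 3.58.1. A fitted difference against a group at 0 is set by the fit's prior count, so counts with a bound (floor of 3 counts over the group) or an exact 95% interval are given for them, and with genes at 0 in one group at their bound and genes at 0 in both left out, the median of the activation list was 3.24 and no other list median changed by 0.01 or more. Intervals and floors cover counting error only, since PCR copies are counted.

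The 42 gene lists, which share members, and the comparison itself were chosen with earlier results of these data known. Genes were named by rule: 11 anchors, the 12 largest called changes in each direction (6 in other contrasts) among genes with a mean log2 CPM above 3, non-overlapping groups and no predicted model, and from every list the 4 smallest p. Other members are named as the complete set called or as ligands, receptors and targets. No p was adjusted over a list alone. Replicate codes occur in both gates of a time in 7 pairs. Their deviations from the group means correlated at r = 0.184 to 0.406, all above 0.1. Some libraries of different codes correlated as well, such as day 28 E4 and F2 (0.386), so r alone does not identify pairs. The codes were treated as pairs only in the limma-voom fit with a replicate block, and the main test of the gates ignored them. Day 7 and undamaged libraries share no code.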

Additional observations from a re-analysis of the deposited data

Results flagged for a closer look

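Dixon's test for a library far from the others of its group was run on the 4 undamaged libraries for 141 named genes. It found 8, a share close to the 1 in 20 or so that chance gives. Library A6 stood highest for Sfrp1 (349.66 CPM), Nr4a2 (32.419 CPM), Kcnma1 (11.804 CPM) and Ncam1 (14.633 CPM). Library E5 stood highest for H19 (15.625 CPM). Library F3 stood lowest for Col3a1 (5015.7 CPM) and Mcm6 (23.921 CPM), and B7 lowest for Igfbp5 (297.01 CPM). In each of these genes every day 7 library lay on one side of all 4 undamaged ones. The change of Mfap5 at day 7 differed between the gates by an interaction test, larger in Sca-1 negative than in Sca-1 positive cells by 1.585 log2.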

How the results depend on the processing

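The counts of the comparison of day 7 with undamaged cells kept both directions under each alternative run. Higher and lower counts were 277 and 111 with replicate 1 as the only day 7 library, 544 and 230 with Xist as a covariate, and 1125 and 1156 without the undamaged libraries A6 and B7, an alternative chosen after seeing the data. Lower counts alone moved by more than 1.5 times to 339 among prefixed-code libraries and 377 with code family as a covariate. They moved to 486 with only the 2 groups compared, and 422 with a log2 difference of at least 1. Fits with code family, here and below, also leave out day 7 replicate 1, which has no family. Leaving out replicate 1 alone gave 335 lower, so the covariate and the lost library cannot be told apart. Leaving out 1 library gave 586 to 1112 higher and 335 to 861 lower. Of 151 named genes called, 74 were called under every alternative, and all 151 kept their sign. With prefixed-code libraries only, the uncalled differences of Ly6a (0.711), Zc3h12a (0.383) and Alas2 (0.481) turned positive, and so did Ly6a with code family as a covariate (0.123). The cause was not tested.

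Against day 28, higher and lower counts were 756 and 549 by DESeq2, 157 and 178 among prefixed-code libraries, 187 and 127 with code family, 132 and 69 with Xist, 909 and 639 with only the 2 groups, 4 and 3 with replicate 1 alone, and 185 lower at a log2 difference of at least 1. Leaving out 1 library gave 77 to 359 higher and 77 to 468 lower. Against day 14 they were 17 and 8 by DESeq2, 6 higher by limma-voom, 1 higher without the low-count filter, 1 higher with only the 2 groups, and 0 to 4 higher with 1 library left out, where a lone day 14 library, like a lone day 7 one, is assumed to vary like the other groups. For the difference between gates they were 23 and 5 by DESeq2, with 3 higher without the filter, 14 among prefixed-code libraries, 0 with code family, 2 with Xist, 0 with replicate 1 of each gate alone, 2 without the prefixed undamaged libraries, and 0 to 3 with 1 library left out.

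With the replicate block (limma-voom on 26 libraries, consensus correlation 0.376) day 7 had 1411 genes higher and 823 lower than undamaged, 466 and 412 than day 28, and 18 and 2 than day 14, and 1 differed between gates. In simulated data with 100 genes changed by 1 log2 and 100 by 2 log2, only 28% of changes of 1 log2 were recovered. The comparison itself called 1716 genes, and recovery depends on the share of changed genes. The simulated share therefore need not hold for these data.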
